A study of Bos taurus with 4 samples.

Results

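The nuclear genes for the subunits of the mitochondrial respiratory chain were followed across nuclei from the fat of 2 beef steers. Members were the rows whose gene name begins with NDUFA, NDUFB, NDUFC, NDUFS or NDUFV and a digit, with UQCR, with COX4 to COX8, or with ATP5. This found 79 of 21861 genes, of which 78 are described, COX7A1 being left out. By complex, 36 belong to complex I, 8 to complex III, 16 to complex IV and 18 to complex V, with NDUFA4 and its paralogue NDUFA4L2 placed in complex IV, where NDUFA4 is found in the enzyme. At least 1 UMI (unique molecular identifier, 1 counted RNA molecule) was seen for 77, 76, 76 and 47 of the 78 in subcutaneous 1, subcutaneous 2, intramuscular 1 and intramuscular 2, and COX6B2, a testis form, had none in any library.

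Each steer, untreated and raised in a commercial feedlot, with diet, age and breed given as unknown, gave 1 library of backfat (subcutaneous 1 and 2) and 1 of intramuscular fat (intramuscular 1 and 2). Single nuclei were sequenced from the 3' end with 10x Genomics chemistry. With 2 animals, each test below rests on 2 libraries of a depot or on sums of nuclei of those libraries. Fits of nucleus types leave 4 residual degrees of freedom, or 1 for slow against fast fibre nuclei. They draw on a spread pooled over all genes, so their p-values do not measure a gene's own spread between animals.

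The respiratory chain passes electrons from NADH through complex I, ubiquinone, complex III and cytochrome c to complex IV, which reduces oxygen, and the proton gradient built on the way drives ATP synthesis by complex V. Most of its subunits are nuclear genes, translated in the cytosol and imported, while a small core is encoded by mitochondrial DNA. Complex IV is the complex with tissue isoforms: COX6A2, COX7A1 and, in cattle, COX8B are the forms of heart and skeletal muscle fibres, COX6A1, COX7A2 and COX8A are their counterparts in most other tissues, and COX4I2 and NDUFA4L2 are forms tied to low oxygen. White adipocytes hold few mitochondria, and slow muscle fibres hold more than fast ones.

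The libraries differed in ways that bear on every value below. Kept nuclei numbered 63 to 6126 per library, and their UMIs 105481 to 4006966. Contractile genes of skeletal muscle took 5.66% and 21.2% of UMIs in subcutaneous 1 and 2, against 0.0169% and 0.0313% in intramuscular 1 and 2, so the muscle RNA sat in the libraries labelled subcutaneous. Intramuscular 2 stood apart, with 63 nuclei and 0.0133% of UMIs from mitochondrially encoded genes, against 1.24% to 1.65% elsewhere. No more than 2 cell barcodes were shared by any pair of libraries. Nuclei were typed by marker genes, at least 2 of a type and more than of any other type. Fibre nuclei numbered 274 and 5712 in subcutaneous 1 and 2, and none was gated in the intramuscular libraries. Adipocyte nuclei numbered 137, 17, 820 and 49 in the order above. Markers kept out of the gate were highest in their own gated type, but those of progenitors were also high in adipocyte nuclei. There they stood at 11677 UMIs per 1000000 against 14892 in progenitors of subcutaneous 1, and 7335 against 8309 in intramuscular 1. Markers of pericytes and smooth muscle were sparse. Their own sums held 34, 10 and 3 UMIs in subcutaneous 1, subcutaneous 2 and intramuscular 1. Adipocyte nuclei had 238, 298 and 155 of these per 1000000, against 736, 334 and 290. In intramuscular 2, which had no sum of pericytes and smooth muscle, adipocyte nuclei had 713 per 1000000, on 69 UMIs. The check thus parts adipocyte nuclei from these types only weakly.

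Muscle fibre nuclei gave the largest share of their UMIs to the respiratory chain genes and adipocyte nuclei the smallest, in each library that held them. In fibre nuclei the 78 genes together took 2.39% of UMIs in subcutaneous 1 (Clopper-Pearson 95% interval 2.34 to 2.45) and 2.89% in subcutaneous 2 (2.87 to 2.91). In adipocyte nuclei they took 0.567% (0.539 to 0.596), 0.857% (0.751 to 0.975) and 0.736% (0.724 to 0.749) in subcutaneous 1, subcutaneous 2 and intramuscular 1. Fibre nuclei thus stood 4.22 and 3.37 times above the adipocyte nuclei of their own library. All intervals cover counting error only. Depth differed too: the median adipocyte nucleus had 1698, 1582 and 1793.5 UMIs in the same order, and that of other non-muscle types 485 to 957. For fibre nuclei the median was 781.5 and 517. Whether depth bears on the order of types was not tested.

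The other types lay between. Nuclei of the vessel wall (pericytes and smooth muscle) numbered 47, 38 and 10 in subcutaneous 1, subcutaneous 2 and intramuscular 1. They took 1.05%, 1.94% and 1.39%, the highest of the non-muscle types in each. Blood endothelial nuclei took 0.955%, 1.22% and 1.26%, and stromal progenitors 0.697%, 1.44% and 1.04%. Macrophage nuclei took 0.631% in subcutaneous 1 and 1.21% in intramuscular 1. Not all neighbours in this order were apart: the intervals of vessel-wall (0.959 to 1.15) and endothelial nuclei (0.914 to 0.997) overlapped in subcutaneous 1. In intramuscular 1 the interval of vessel-wall nuclei (1.18 to 1.64) held that of endothelial nuclei (1.22 to 1.31), and in subcutaneous 1 the interval of macrophage nuclei (0.536 to 0.737) held that of adipocytes. The levels of subcutaneous 2 go with muscle RNA in nuclei of other types, where ACTA1, the skeletal muscle actin, stood at 4939 to 8861 CPM (UMIs per 1000000 UMIs of the sum), against 1271 to 2512 in subcutaneous 1. Vessel-wall nuclei were at the top of both ranges, and in subcutaneous 2, 22 of the 38 led the next type by 1 marker. In intramuscular 1 they had 387 CPM of the fibre markers kept out of the gate, on 4 UMIs. The other types there had 29.0 to 203. The part of muscle RNA in these shares and in the rank of vessel-wall nuclei was not tested. In intramuscular 1, where contractile genes took 0.0169% of UMIs, adipocytes were also the lowest of the 5 types.

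**Figure D1:**
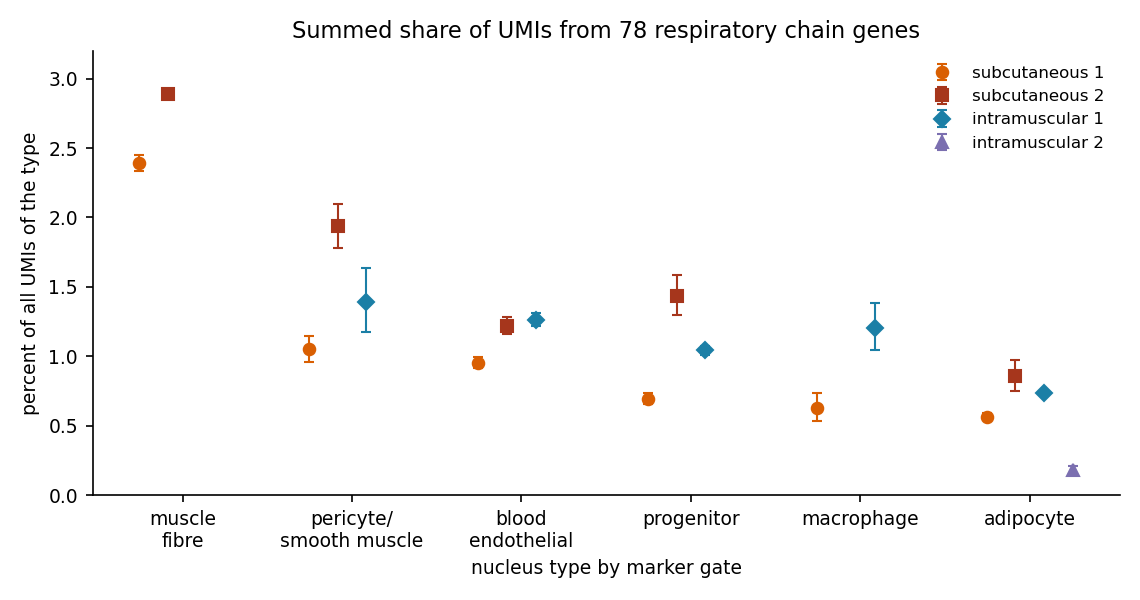
Percent of all UMIs of a nucleus type that came from the 78 respiratory chain genes (y axis), by type (x axis) and library (colour and shape), with Clopper-Pearson 95% intervals for counting error. Fibre nuclei sit at 2.39% and 2.89%, adipocyte nuclei between 0.567% and 0.857% in 3 libraries and at 0.180% in intramuscular 2.

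The spread between single nuclei was wide within fibres. The median fibre nucleus gave 1.54% of its UMIs to these genes in subcutaneous 1, with an interquartile range of 0.692 to 3.15, and 2.79% in subcutaneous 2, with a range of 2.05 to 3.62. The median adipocyte nucleus gave 0.515%, 0.935%, 0.707% and 0.160% in subcutaneous 1 and 2 and intramuscular 1 and 2.

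Fibre nuclei were then compared, gene by gene, with the adipocyte, progenitor, endothelial and vessel-wall nuclei of the same 2 subcutaneous libraries. The fit used UMIs summed per library and type. Ranges of CPM given below for the other types also hold the 23 macrophage nuclei of subcutaneous 1, which were not in the fit. Of 74 members that passed the count filter, 69 rose in fibre nuclei and 0 fell, against 20.4% of all 5980 genes tested that rose and 8.14% that fell (28.5% in either direction). The median log2 fold change of the 74 was 2.28, against 0.01 over all genes, and the 69 ranged from 1.63 to 3.51. All 35 tested subunits of complex I, all 8 of complex III and all 18 of complex V rose, as did 8 of the 13 tested in complex IV. COX6B2, COX7B2, NDUFA4L2 and NDUFA12 were too low to test. When sums were scaled by their plain totals, the median of all genes moved to -0.90 and the split of all called genes from 1218 higher and 487 lower to 607 higher and 2163 lower.

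In the fit over both libraries the largest differences among members were those of the muscle isoforms of complex IV. COX6A2, the muscle form of subunit VIa, had 197 UMIs (695 CPM) and 3188 UMIs (872 CPM) in fibre nuclei of subcutaneous 1 and 2. In the other types it stood at 29.7 to 86.7 CPM in subcutaneous 1 and 178 to 404 in subcutaneous 2, so fibre nuclei were highest in each library. Its log2 fold change was 3.51 (SE 0.33, adjusted p = 2.88e-24 in edgeR's quasi-likelihood fit, Benjamini-Hochberg over all genes). COX8B, the muscle form of subunit VIII, had 1026 and 941 CPM in fibre nuclei, and 0 to 103 and 209 to 514 in the other types. The difference was 3.40 on the log2 scale (SE 0.33, adjusted p = 1.23e-23 in the same fit). Their size and rank rested on the library: without subcutaneous 1 they were 2.19 for COX6A2 and 1.96 for COX8B, below UQCRB at 2.92 and NDUFA4 at 2.61, and without subcutaneous 2 they were 4.44 and 5.57.

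In complex I, NDUFS7, an iron-sulfur subunit near the quinone site, was the member with most UMIs over all libraries. It had 536 and 683 CPM in fibre nuclei of subcutaneous 1 and 2, against 0 to 156 and 184 to 334 in the other types of the same libraries. NDUFS7 rose by 2.60 (SE 0.32, adjusted p = 3.61e-14), and it was 2.25 and 3.97 without subcutaneous 1 and without subcutaneous 2. NDUFS8 and NDUFA13 had the largest changes of this complex, 2.89 and 2.85, and NDUFB10, at 1.63, had the smallest of the 69.

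In complex III, UQCRB, the ubiquinone-binding protein, stood at 677 and 740 CPM in fibre nuclei and at 121 to 238 and 37.3 to 334 in the others. It rose by 2.87 (SE 0.32, adjusted p = 3.52e-17), and 2 further subunits, the Rieske iron-sulfur protein UQCRFS1 and the small UQCR10, rose by 2.87 as well. UQCR11, a small subunit with most UMIs of this complex, stood at 666 and 878 CPM in fibre nuclei and rose by 2.52.

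In complex IV, NDUFA4, the member with most UMIs of this complex, stood at 1174 and 1807 CPM in fibre nuclei, against 80.4 to 498 and 149 to 736 in the other types. NDUFA4 rose by 2.94 (SE 0.32, adjusted p = 1.67e-18). The regulatory subunits COX5A and COX5B, which have no muscle isoform, rose by 2.88 and 2.67. COX4I1, the common form of subunit IV, rose by 1.89 (SE 0.32), from 178 to 602 CPM in the other types to 723 and 895 in fibre nuclei. In complex V, ATP5F1B, the catalytic beta subunit, stood at 599 and 700 CPM in fibre nuclei and 136 to 442 in the others, and rose by 2.18 (SE 0.32, adjusted p = 2.97e-10). The median of the 18 members of this complex was 2.30.

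The 5 members that did not pass were all in complex IV and all forms that have a paralogue among the members or in COX7A1. COX6A1 had a log2 fold change of -0.09 (SE 0.37, adjusted p = 0.898), COX7A2 of -0.30 (SE 0.42, adjusted p = 0.647) and COX8A of -0.42 (SE 0.43, adjusted p = 0.505). COX7A2L, a paralogue of COX7A2 that takes part in assembling supercomplexes, had 0.36 (SE 0.45, adjusted p = 0.604). COX4I2 had -0.64 with an SE of 3.89, which gives no direction. By plain totals 3 of them fell, COX8A by 1.34, COX7A2 by 1.19 and COX6A1 by 0.93, with adjusted p of 0.00759, 0.0155 and 0.0363, and COX7A2L turned to -0.52.

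**Figure D2:**
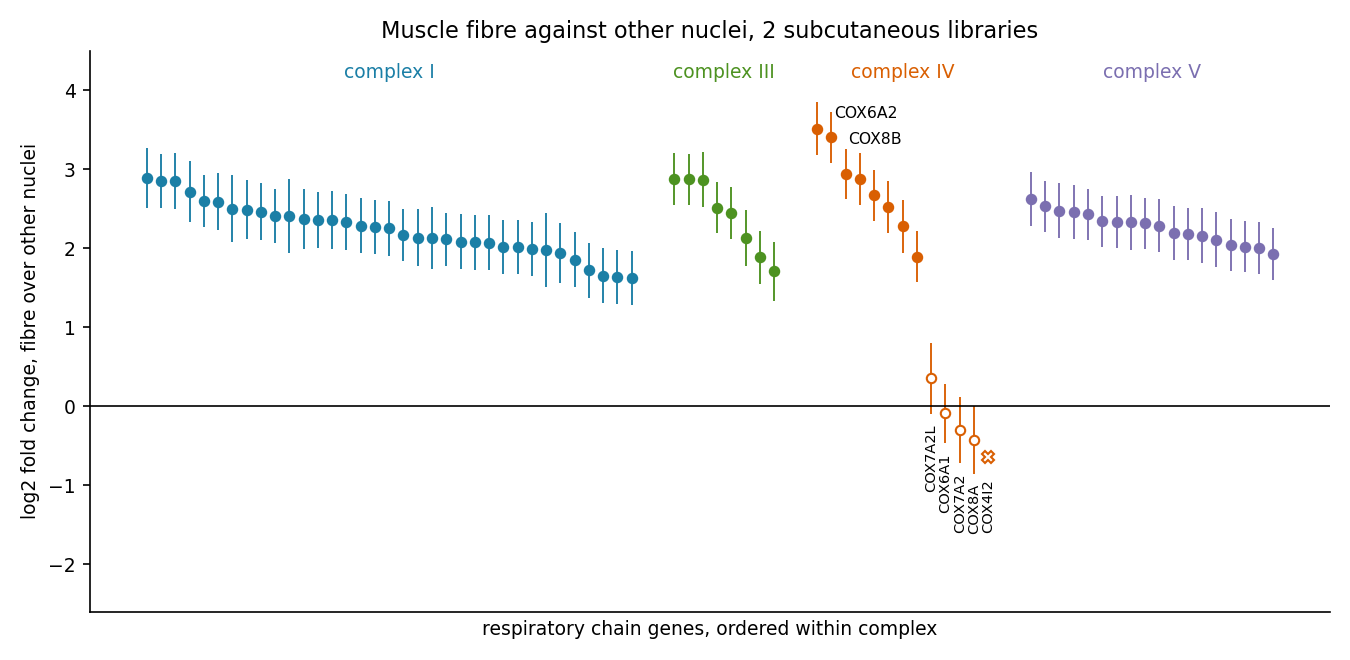
Log2 fold change of fibre nuclei over other nuclei (y axis) for the 74 tested members, grouped by complex and ordered by size (x axis), with bars of 1 SE from edgeR's fit over 10 sums of 2 libraries. Filled points passed an adjusted p of 0.05, the 5 open points did not, and the cross (COX4I2) has an SE too large to draw.

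Within the pairs of COX6A2 and COX8B the muscle form made up most UMIs in fibre nuclei. UMIs here come from the 3' end and are not scaled to gene length, so these shares are compared between types, not read as protein ratios. COX6A2 took 83.8% (78.5 to 88.3) of the UMIs of COX6A2 and COX6A1 in fibre nuclei of subcutaneous 1 and 95.1% (94.3 to 95.8) in subcutaneous 2. COX8B took 94.8% (91.7 to 97.0) and 96.4% (95.8 to 97.0) of the UMIs of COX8B and COX8A. In adipocyte nuclei of intramuscular 1 the COX6A2 share was 0 of 373 UMIs, with an upper limit of 0.984%, and the COX8B share was 7.22% (3.90 to 12.0).

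In the subcutaneous libraries the muscle isoforms were also found in nuclei gated as other types. There COX6A2 took 13.3% to 48.5% of its pair in the other types of subcutaneous 1, and 43.4% to 88.9% in those of subcutaneous 2, on 6 to 53 UMIs of the pair. Their ratio to ACTA1 was set beside that in fibre nuclei. COX6A2 had 3.87 UMIs per 100 of ACTA1 in fibre nuclei of subcutaneous 1 (3.34 to 4.47), and 2.34, 4.05, 4.24 and 1.72 in adipocyte, progenitor, endothelial and vessel-wall nuclei, with intervals that all held the fibre value. In subcutaneous 2 the ratio was 3.79 in fibre nuclei (3.65 to 3.92) and 5.97, 4.80, 3.61 and 3.77 in the same types, again with intervals that held it. COX8B did likewise, with 5.72 in fibre nuclei of subcutaneous 1 and 5.56, 4.81 and 5.65 in adipocyte, progenitor and endothelial nuclei. COX4I1, common to all types, differed in subcutaneous 1: it had 4.03 per 100 of ACTA1 in fibre nuclei (3.49 to 4.64) and 14.0, 17.0 and 29.9 in the same 3 types, with intervals above it. In subcutaneous 2 it had 3.88 in fibre nuclei (3.75 to 4.02), and the interval of endothelial nuclei (8.45 to 14.1) lay above it, while those of adipocyte (4.002 to 15.2), progenitor (3.29 to 10.5) and vessel-wall nuclei (3.96 to 10.9) overlapped it. With 0 to 27 UMIs per sum, these ratios are wide, and whether COX6A2 and COX8B outside fibre nuclei of these 2 libraries came from muscle RNA was not tested.

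**Figure D3:**
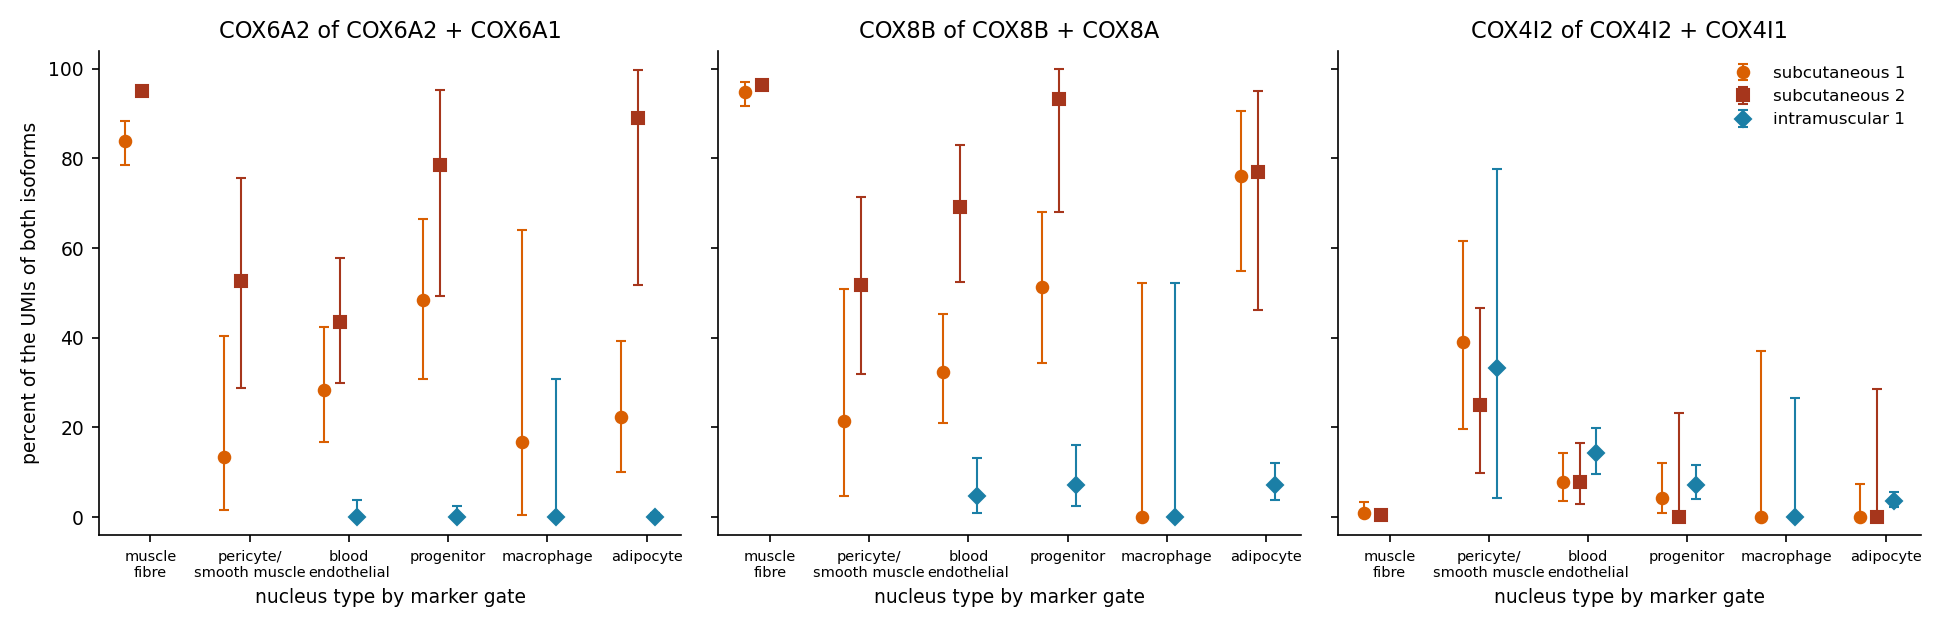
Percent of the UMIs of an isoform pair that came from the first-named form (y axis), by nucleus type (x axis) and library, for pairs with at least 5 UMIs, with Clopper-Pearson 95% intervals. COX6A2 and COX8B are above 80% in fibre nuclei of both libraries, while COX4I2 is highest in pericyte and smooth muscle nuclei.

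The other genes of the pathway were followed by list. All 9 tested genes of a list of complex II, the electron carriers and other chain genes rose, among them CYCS (cytochrome c, 2.82), NDUFAB1 (the acyl carrier protein of complex I, 2.74) and SDHC (a membrane anchor of complex II, 2.27). CYCS stood at 338 and 344 CPM in fibre nuclei and at 0 to 267 in the other types. Of 13 tested assembly factors, 7 rose, with COX17, a copper chaperone, at 2.27, and 6 did not pass. Of 4 tested regulators of mitochondrial content 2 rose. PPARGC1A, the coactivator PGC-1alpha, had 197 and 58.8 CPM in fibre nuclei and a log2 fold change of 5.07 (SE 0.65), and ESRRA, its nuclear receptor partner, had 1.43 (SE 0.48).

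Fibre nuclei could be divided by their myosin, troponin and calcium pump genes (summed slow or fast UMIs of at least 2, and 2 times those of the other class), none a member, into slow and fast classes: 87 slow and 161 fast nuclei in subcutaneous 1, and 80 slow and 5278 fast in subcutaneous 2. The members took 3.17% and 4.24% of the UMIs of slow nuclei, against 2.16% and 2.78% of fast nuclei, which is 1.47 and 1.53 times as much. By complex the ratio was lowest for complex I, 1.32 and 1.38, and lay between 1.46 and 1.66 for the other 3. Of 73 members with over 3 UMIs in both classes of both libraries, 61 were higher in CPM in slow nuclei in both, against 36.7% of the 2362 genes that met the same minimum, and 1 was lower in both.

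In the fit of slow against fast nuclei, 11 of 71 tested members rose and 0 fell, against 4.05% of all 1953 genes tested that rose and 2.56% that fell (6.61% in either direction). The median log2 fold change was 0.53, against -0.03 for all genes. The 11 were UQCRC2, UQCRFS1 and UQCR11 of complex III, COX5A, COX5B, COX6A2 and COX7B of complex IV, and ATP5F1A, ATP5F1B, ATP5MC1 and ATP5MC3 of complex V, with 0 of 35 in complex I. Yet 32 of those 35 were positive, and 6 had an unadjusted p under 0.05 in this fit. Their median was 0.47, against 0.70, 0.81 and 0.49 in complexes III, IV and V. Their median SE was 0.35, against 0.27 for the 11 called. ATP5F1A, the alpha subunit of ATP synthase, had 971 CPM in slow and 381 in fast nuclei of subcutaneous 1, and 1031 and 581 in subcutaneous 2. ATP5F1A rose by 1.03 (SE 0.27, adjusted p = 0.00324 by edgeR). UQCRC2, a core subunit of complex III, had 196 and 50.8 CPM in subcutaneous 1 and 357 and 163 in subcutaneous 2, with a change of 1.34 (SE 0.39, adjusted p = 0.0141). COX6A2 had 1064 and 578, and 1458 and 832, with a change of 0.82 (SE 0.27, adjusted p = 0.0343). COX8B had 1353 and 984 in subcutaneous 1 and did not pass.

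These calls rested on the fit with the library as a block, which leaves 1 residual degree of freedom. With no block, with DESeq2, and without the filter on low counts, 0 of the members were called. The medians of the tested members in those fits were 0.51, 0.53 and 0.24. In the same fit CYCS rose by 1.17, SDHD by 0.98 and SDHA by 0.87 among the complex II and carrier genes (3 of 9), and the assembly factor COX14 by 1.28 (1 of 7).

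**Figure D4:**
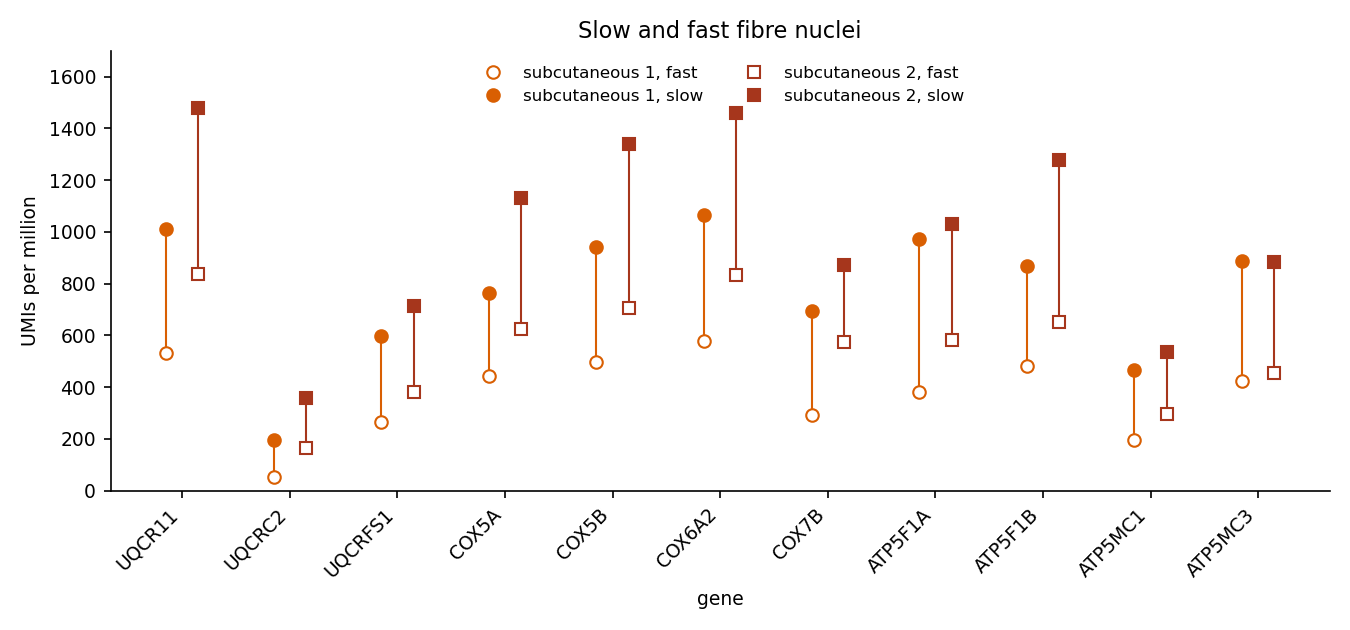
CPM (y axis) of the 11 members that rose in slow fibre nuclei (x axis), in fast (open) and slow (filled) nuclei of each subcutaneous library, joined by lines. Each gene is higher in slow nuclei in both libraries.

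Among the non-muscle types, nuclei of pericytes and smooth muscle were set against adipocyte, progenitor, endothelial and macrophage nuclei. This used subcutaneous 1 and intramuscular 1, the 2 libraries with all 5 types. Vessel-wall nuclei numbered 47 in subcutaneous 1 and only 10, the minimum for a sum, in intramuscular 1. Of these, 14 and 5 led the next type by 1 marker. Of 75 tested members 3 rose and 0 fell, against 2.06% of all 6800 genes tested that rose and 0.265% that fell (2.32% in either direction). The member median was 0.28, against -0.18 for all genes, and 5 members had an unadjusted p under 0.05. Among the 3 were COX4I2 and NDUFA4L2, both of complex IV.

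COX4I2, the low-oxygen form of subunit IV, had 9 of 46180, 6 of 29908 and 2 of 10342 UMIs in vessel-wall nuclei of subcutaneous 1, subcutaneous 2 and intramuscular 1, or 195, 201 and 193 CPM. Endothelial nuclei came next, with 42.4, 46.4 and 114 CPM, and adipocyte nuclei had 0, 0 and 12.2. Fibre nuclei had 7.05 and 4.10. Within the class, smooth muscle markers were ahead of pericyte markers in 35 of 47 nuclei in subcutaneous 1 and 29 of 38 in subcutaneous 2. These nuclei held 1 of the 9 and 2 of the 6 UMIs, or 38.1 and 94.9 CPM. Their exact Poisson 95% intervals (0.964 to 212 and 11.5 to 343) held the levels of the class. So few UMIs do not show a difference within the class. COX4I2 made up 39.1% (19.7 to 61.5), 25.0% (9.77 to 46.7) and 33.3% (4.33 to 77.7) of the UMIs of COX4I2 and COX4I1 in vessel-wall nuclei, against 0.966% and 0.456% in fibre nuclei. Its log2 fold change was 4.31 (SE 1.03, adjusted p = 0.00233 by edgeR), and it was 2.95 without subcutaneous 1 and 5.23 without intramuscular 1.

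NDUFA4L2, the paralogue of NDUFA4 known as a target of hypoxia-inducible factor, had 6, 0 and 4 UMIs in the same vessel-wall sums, or 130, 0 and 387 CPM. In subcutaneous 1 the 35 nuclei with smooth muscle markers ahead held 0 of the 6, which allows up to 140.5 CPM. The 0 of subcutaneous 2 allows up to 100.3 CPM. Endothelial nuclei had 14.1, 7.74 and 77.2 CPM, and in intramuscular 1 they held 19 of the 41 UMIs of the library. The log2 fold change of NDUFA4L2 was 5.60 (SE 1.11, adjusted p = 6.41e-05). NDUFA4L2 overlaps SHMT2 by position in the gene table. Strand was not compared, so whether the few UMIs of NDUFA4L2 are all its own is uncertain.

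Without macrophage nuclei, which lets in subcutaneous 2, both NDUFA4L2 and COX4I2 passed (4.46 and 3.10, adjusted p = 0.000382 and 0.000531 by edgeR). With no library block COX4I2 did not pass (adjusted p = 0.131) and NDUFA4L2 did (adjusted p = 0.0443).

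**Figure D5:**
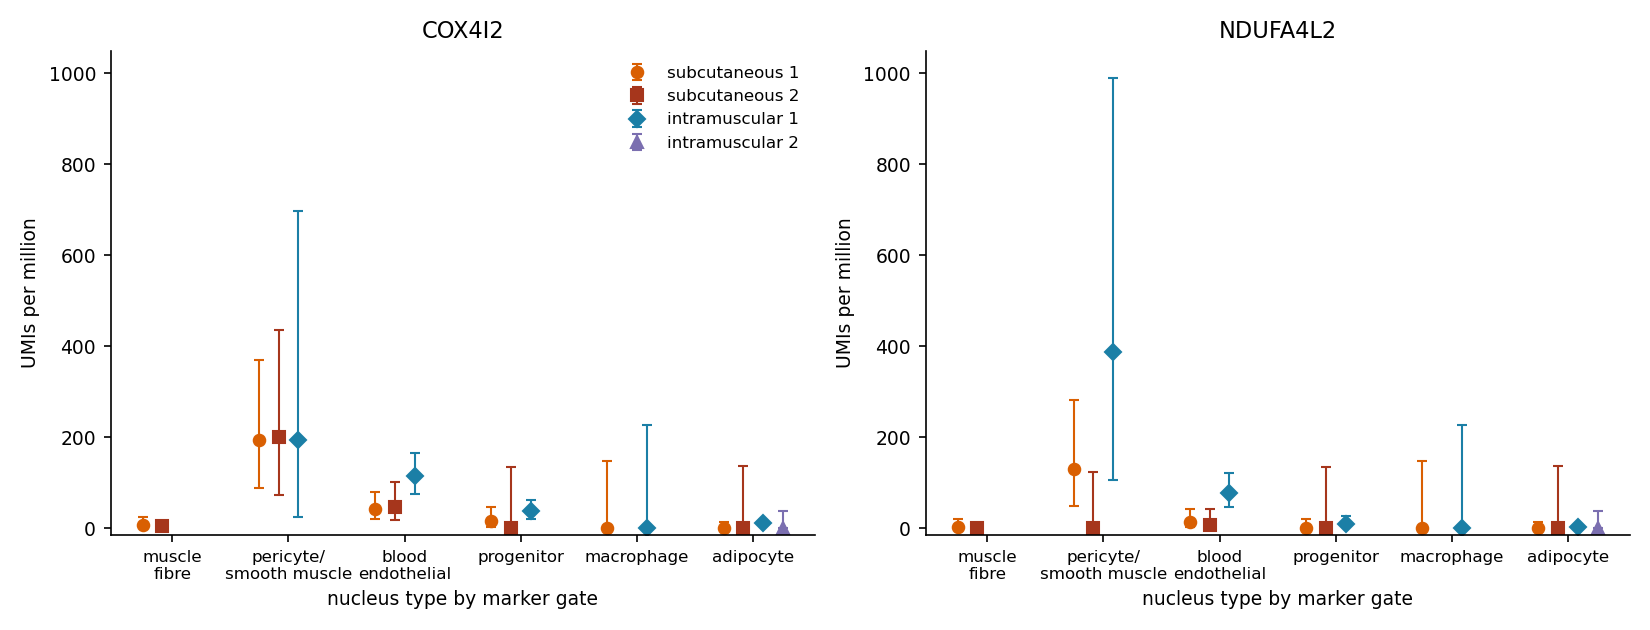
CPM (y axis) of COX4I2 and NDUFA4L2 by nucleus type (x axis) and library, with exact Poisson 95% intervals for counting error. COX4I2 is at 193 to 201 CPM in the summed pericyte and smooth muscle nuclei of 3 libraries (38.1 and 94.9 in the nuclei of subcutaneous 1 and 2 with smooth muscle markers ahead), and NDUFA4L2 is at 130, 0 and 387.

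Adipocyte nuclei were compared with the other non-muscle nuclei of the same 2 libraries. Of 75 tested members 0 rose and 3 fell, against 5.75% of all 6800 genes that fell and 21.8% that rose (27.5% in either direction). The member median was -0.26, against 0.47 for all genes. COX8A, the common form of subunit VIII, had 22.3 and 96.8 CPM in adipocyte nuclei of subcutaneous 1 and intramuscular 1, below its levels of 97.6 to 238 and 160 to 306 in the other types. It fell by 1.44 (SE 0.41, adjusted p = 0.00348 by edgeR). NDUFA1 fell by 1.15 and NDUFA13 by 1.25, both small accessory subunits of complex I, with adjusted p of 0.0266 and 0.0390.

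The count of 3 depended on the fit. It was 0 with no library block, 1 without the filter on low counts, 12 by plain totals and 25, all lower, when macrophage nuclei were left out and subcutaneous 2 was let in. Apart from the fit with no block, the share of all genes called is not given for these fits. The counts are thus not read as a result about the members. COX8A had -0.81 without subcutaneous 1 and -2.84 without intramuscular 1. In the pathway lists the share that rose was near the 21.8% of all genes. COX14 and COX19, both factors of complex IV assembly, rose by 3.93 (SE 0.40) and 5.21 (SE 0.58), 2 of 11 tested assembly factors. COX14 had 769, 447, 1890 and 351 CPM in adipocyte nuclei of the 4 libraries and 40.2 to 188 in the other non-muscle types. GPD1, its next neighbour by name in the gene table and an enzyme of glycerol phosphate synthesis, stood at 613, 596, 923 and 1105 CPM in the same adipocyte nuclei, and at 1095 in fibre nuclei of subcutaneous 2, where COX14 stood at 147. COX19 had 468, 485, 447 and 1054 CPM in adipocyte nuclei and at most 100.3 in the other non-muscle types. CYC1 and ETFDH rose by 1.08 and 1.42 (2 of 9 complex II and carrier genes), and TFB1M, a factor of mitochondrial translation, by 2.76 (1 of 3 regulators).

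Depots are given as labelled, and since the fibre nuclei sat in the libraries labelled subcutaneous, a mix-up of depot labels, which would reverse every direction between depots, was not tested. Members took 1.19% and 2.76% of UMIs in subcutaneous 1 and 2, and 0.889% and 0.181% in intramuscular 1 and 2, so the depots did not overlap, and neither did their contractile shares given above. The mean difference was -1.44 percentage points, and it was -0.66 without subcutaneous 2. In whole-library sums fewer nuclei of a type and less RNA per nucleus cannot be told apart. In edgeR's fit 1 of 75 tested members was lower in intramuscular fat and 0 were higher, against 1.47% of all 11143 genes that were lower and 0.0538% that were higher (1.53% in either direction). In 59 of the 75 both intramuscular libraries lay below both subcutaneous ones, against 15.1% of all genes, and in 0 they lay above, against 24.2%.

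The 1 member called was COX6A2, with 266 and 3296 UMIs (234 and 823 CPM) in subcutaneous 1 and 2 and 0 in both intramuscular libraries, of 2717458 and 105481 UMIs. It was at least 8.21-fold lower in intramuscular fat, setting the lower subcutaneous level over the 28.4 CPM that 3 counts amount to in intramuscular 2 (adjusted p = 0.0339). Without intramuscular 1, and without the nuclei gated as fibre or satellite cells, it did not pass (adjusted p = 0.0919 and 0.0670). COX8B, with 332, 890, 11.8 and 0 CPM in subcutaneous 1 and 2 and intramuscular 1 and 2, had a log2 fold change of -7.19 (SE 1.81, adjusted p = 0.0718) and passed with DESeq2 (adjusted p = 3.4e-06). Without the fibre and satellite nuclei 0 members and 0 genes of any kind passed in edgeR, 2 members had an unadjusted p under 0.05, and the member median moved from -2.69 to -0.96.

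The 2 muscle isoforms had different counts in intramuscular 1. COX8B had 32 UMIs there, 13 of them in adipocyte nuclei, while COX6A2 had none, which allows up to 1.10 CPM. In subcutaneous 1 and 2 the same pair had 378 against 266 and 3568 against 3296 UMIs. COX8B overlaps another protein-coding gene by position in the gene table. Strand was not compared, so whether its few UMIs in intramuscular 1 are all its own is uncertain.

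Within adipocyte nuclei no member passed the test between depots. The median SE of the members was 0.96 on the log2 scale, so differences of that size could not be seen. The result does not show equal levels. Of 56 tested, 0 passed in edgeR, against 0.296% of all 4392 genes, and 1 had an unadjusted p under 0.05. The median was -0.10, against 0.10 for all genes. Both intramuscular libraries lay below both subcutaneous ones for 11 members (19.9% of all genes) and above for 3 (9.61%). COX8B had 19, 10, 13 and 0 UMIs in adipocyte nuclei of subcutaneous 1 and 2 and intramuscular 1 and 2, or 70.6, 373, 7.53 and 0 CPM. Its log2 fold change was -4.56 (SE 1.16, adjusted p = 0.398), it passed with DESeq2 (adjusted p = 0.0461), and its ratio to ACTA1 in the subcutaneous adipocyte nuclei, 5.56 and 7.46 per 100, had intervals that held the fibre values. NDUFB11 and NDUFA10 had the next smallest p, with 1.53 (SE 0.87) and 1.17 (SE 0.69). With 1 intramuscular library left out, that depot has 1 library, so members called in such fits are not read as a result.

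Intramuscular 2 had its own pattern. Of the 78 members 31 had no UMI, where 1 library's floor of 3 counts is 28.4 CPM, and 25 of those 31 stood above that floor in intramuscular 1. NDUFA4, COX6A1, COX5B and UQCRB were all at 0. NDUFA10 with 25 UMIs, NDUFS7 with 14, NDUFV1 with 11 and NDUFB11 with 9, all of complex I, were among the highest of its 191 member UMIs. Complex I took 62.3% of the member UMIs there and 32.8% to 34.8% in the other 3 libraries.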

How the data were processed

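The deposited matrices of the 4 libraries give unscaled UMI counts; the authors counted them with Cell Ranger 6.0.1, per the file headers, on ARS-UCD1.2, per the submitters' processing notes. How intronic reads were treated and which annotation release was used are both not given in the sources used here. Barcode and feature lists carry other labels, not values. Nuclei with at least 200 genes and under 10% mitochondrial UMIs were kept (63 to 6126 per library); doublets were not called. Nuclei with no leading type (3.62% to 17.2%) stayed out of typed sums.

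UMIs were summed per library and type with at least 10 nuclei. Tests used edgeR 4.0.16 (filterByExpr, TMM, quasi-likelihood F test, Benjamini-Hochberg over all genes, threshold 0.05) in R 4.3.3. SE is the absolute log2 fold change over the square root of F. Depot fits had no block, and types had the library as block. DESeq2 1.42.0, other scalings, filters, gates and left-out libraries were alternatives. The labels give both depots the same animals, so animal pairs them.

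The members and lists were chosen with earlier results of these data known. Named genes are the isoform pairs, up to 8 called members of smallest p (or 3 where none passed), the most abundant member of each complex and up to 3 called genes per pathway list; NDUFS8, NDUFB10, NDUFV1 and the neighbour gene GPD1 were chosen after their values were seen. Names matched the ARS-UCD2.0 gene table for 78 members, of which 16 overlap another protein-coding gene by position (strand not compared), COX4I1 and UQCRC2 among them. ESRRA and TFB1M of the pathway lists also do. No coordinates are given. A result that the rule would name is not reported here.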

Additional observations from a re-analysis of the deposited data

How the results depend on the processing

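Of 1160 values recomputed under alternatives, the counts and shares that answer a comparison moved in 46 and stayed close in 97. Of the values of single members, 851 kept their direction and side of the threshold or moved little, 57 moved, 48 lost and 27 gained their call, and 34 changed sign. In whole libraries the count of members that differed between depots, 1, was 2 by plain totals, 2 with at least 500 genes, 4 with no count filter, 3 with DESeq2 and 0 without fibre and satellite nuclei, and 0 to 2 with 1 library left out. All genes called, 170, were 444 with no filter, 337 with DESeq2, 0 without fibre and satellite nuclei, and 24 (without intramuscular 1) to 411 (without subcutaneous 1) with 1 library left out. In adipocyte nuclei the 0 members became 2 with no filter, 1 with DESeq2, and 0 to 6 with 1 library left out. The 13 genes called there became 21 by plain totals, 57 with no filter, 0 with all barcodes, 20 with at least 500 genes, 4 with the strict gate (at least 3 markers, without subcutaneous 2), 36 with DESeq2, and 20 to 278 with 1 library left out. For fibre nuclei all genes called, 1705, became 2770 by plain totals, 1075 with at least 500 genes and 966 with the strict gate, where 67, 68 and 56 members passed. For slow against fast nuclei the 11 members became 0 and the 129 genes 63 with no filter, and 0 and 45 with DESeq2. For adipocytes against other types the 3 members became 12 by plain totals and 1 with no filter, counts given without the share of all genes. Leaving out macrophages, chosen after seeing the data, gave 25 members for adipocytes and 289 genes, from 158, for vessel-wall nuclei.

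With the animal as replicate block, 34 genes were called between depots in adipocyte nuclei, and COX6A1 (-1.15) and COX7A2 (-1.04) turned negative in whole libraries. With no library block the calls went from 3 members to 1 and 158 genes to 67 for vessel-wall nuclei, from 3 to 0 and 1872 to 1024 for adipocytes, and from 11 to 0 and 129 to 0 for slow against fast. The block moved no other count of calls by over 1.5 times.

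Single members changed sign 34 times, and the cause was not tested. Between whole libraries without intramuscular 1 these were COX4I2 (-7.49), NDUFA4L2 (-5.91), COX6A1 (-10.02) and COX7A2 (-9.67), and the highest values with 1 library left out were 0.75, 2.08, 1.202 and 1.05. In adipocyte nuclei they were COX6A1 (-6.51) and COX7A2 (-6.80) without intramuscular 1, COX4I1 (0.70) and ATP5F1B (0.60) without intramuscular 2, and ATP5F1B (1.40) with the strict gate; the other ends with 1 library left out were 2.17 and 1.85 for COX6A1 and COX7A2, and -2.595 and -2.05 for COX4I1 and ATP5F1B. For fibre nuclei they were COX7A2L by totals (-0.52), COX7A2L (-0.66) and COX6A1 (0.96) with the strict gate, and COX6A1 (0.44) and COX7A2 (1.27) without subcutaneous 2. For vessel-wall nuclei they were COX4I1 (0.23) with at least 500 genes, UQCR11 (0.23) without macrophages, and, without subcutaneous 1, COX6A1 (-0.93), COX8A (-0.35), NDUFA4 (-0.99), ATP5F1B (-0.16) and NDUFS7 (-0.50), against 1.03, 1.28, 1.62, 0.65 and 1.81 without intramuscular 1. For adipocytes they were COX6A2 (0.66), COX7B (0.37) and NDUFA1 (0.20) with at least 500 genes, NDUFA4 (0.24) with the strict gate, COX7A2L (1.93), COX7A2 (-0.40) and ATP5F1B (0.20) without subcutaneous 1, against -0.63, 1.98 and -0.83 without intramuscular 1, and COX8B (-0.36), NDUFS7 (-0.024) and UQCR11 (-0.67) without macrophages. For slow against fast it was NDUFS7 with no filter (-0.069).

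Comparisons of nucleus types have 2 libraries, so leaving 1 out gave values without a test, as did the stricter nucleus settings for vessel-wall and adipocyte nuclei, which kept only subcutaneous 1. Vessel-wall values rest on at most 9 UMIs a sum for COX4I2 and NDUFA4L2, and intramuscular 2 on 191 member UMIs.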
